A study of Homo sapiens with 12 samples.

Results

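The genes described here are the zinc finger genes whose symbols run from ZNF500 to ZNF799 and whose level averaged at least 1 CPM (reads of a gene scaled to the column total) over 12 RNA libraries of NUGC-4, an established line of diffuse gastric cancer. Of 207 genes with such a symbol, 153 passed, out of 60623 genes in the table. All 153 were annotated as protein-coding, and all 153 entered the test. The nearest genes inside the minimum were ZNF541 at 1.04, ZNF750 at 1.06 and ZNF608 at 1.16 CPM, and the nearest outside were ZNF564 at 0.768, ZNF528 at 0.692 and ZNF773 at 0.647 CPM.

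The study crossed 2 kinase inhibitors, each given for 24 h, in NUGC-4 cells labelled wild type. There were 4 groups of 3 libraries: untreated control, 1 µM IN10018 (an inhibitor of focal adhesion kinase), 1 µM crizotinib (an inhibitor of the receptor kinases MET, ALK and ROS1), and the combination of 1 µM of each. All groups share the 1 cell line, grown in the same serum medium, and no vehicle is named in the labels used here. The series title places the 2 inhibitors in cancers that lack CDH1.

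Most of these genes encode C2H2 zinc finger proteins, in which each finger folds around a zinc ion held by a pair of cysteines and a pair of histidines and a row of fingers reads DNA. Many carry at their start a KRAB domain, which binds the scaffold protein TRIM28 (KAP1). TRIM28 in turn brings in the histone methyltransferase SETDB1 and heterochromatin protein 1, and the best known targets of this silencing are transposable elements. KRAB zinc finger genes lie largely in tandem clusters on chromosome 19, and many other zinc finger proteins have no KRAB domain and act in unrelated ways.

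By a pattern search of the translated coding sequences of GENCODE 29, 95 members held a KRAB A box, 1 (ZNF500) held a SCAN domain, a dimerization module, and 57 held neither. The 58 members in which the search found no KRAB box are called members without KRAB and treated as 1 class below. On chromosome 19 lay 71 members, of which 56 had KRAB. The KRAB members had a median of 10 fingers and a median exon GC content of 43.0%. The members without KRAB had a median of 8 fingers and 53.2% GC. Exon GC content is here that of the longest transcript of each gene. The median over 12491 protein-coding genes tested was 48.6% GC. The search found no finger in 3 members, ZNF503, ZNF720 and ZNF738.

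The sequences below are the first finger of the commonest spacing that lies within 1 exon, in 6 members, chosen because these members gave some of the largest changes with the combination and because they show how differently the same fold is spelled. Each reads 5′ to 3′ on the coding strand of GRCh38, and capitals mark the codons of the cysteines and histidines that hold the zinc. ZNF580, ZNF524 and ZNF785 were higher with the combination, and ZNF770, ZNF678 and ZNF614 were lower.
ZNF580, chr19:55642788-55642850, plus strand: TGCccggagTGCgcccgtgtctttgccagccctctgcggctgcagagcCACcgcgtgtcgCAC
ZNF524, chr19:55602458-55602520, plus strand: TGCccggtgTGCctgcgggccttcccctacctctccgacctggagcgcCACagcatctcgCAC
ZNF785, chr16:30583196-30583258, minus strand: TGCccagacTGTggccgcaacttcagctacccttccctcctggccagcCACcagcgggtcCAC
ZNF770, chr15:34983288-34983350, minus strand: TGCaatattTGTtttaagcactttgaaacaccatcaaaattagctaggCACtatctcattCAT
ZNF678, chr1:227654545-227654607, plus strand: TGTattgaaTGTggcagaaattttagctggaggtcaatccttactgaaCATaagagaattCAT
ZNF614, chr19:52016671-52016733, minus strand: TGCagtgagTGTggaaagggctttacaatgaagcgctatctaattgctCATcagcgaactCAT
Over these 63 bases, GC content was 71.4% in ZNF580, 69.8% in ZNF524 and 66.7% in ZNF785. It was 31.7% in ZNF770, 34.9% in ZNF678 and 44.4% in ZNF614. The third base was G or C in every codon of the ZNF524 finger and in 28.6% of those of the ZNF770 and ZNF678 fingers.

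Library totals ran from 13691844 to 20489708 reads. Crizotinib library 2 stood apart from the other crizotinib libraries. Its first principal component over all genes was 57.8, beside -4.61 and 10.3 for crizotinib libraries 1 and 3, from 37.8 to 91.4 for the combination and from -54.6 to -41.9 for the controls. Mitochondrially encoded genes took 5.21% of its reads, beside 13.3 and 9.46% in the other crizotinib libraries, up to 11.9% in controls, 11.5 to 12.7% with IN10018 and 4.28 to 6.99% with the combination. The crizotinib counts, medians and named changes are therefore also given without library 2. Whether the 3 libraries of each group were separate cultures is not stated, so p-values measure only the spread between libraries, which may be technical.

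Of the epithelial markers, KRT8 had a median of 1311 CPM, KRT18 588, KRT7 211 and EPCAM 17.6, and KRT19 had 0 reads. The 6 epithelial markers summed to between 2072 and 2129 CPM in controls and between 2825 and 4250 with the combination. One label names adipogenic differentiation. Of the 5 adipocyte markers, ADIPOQ had 0 reads, FABP4 had a median of 68.8 CPM, and the sum went from 66.0 to 70.9 CPM in controls and from 111.4 to 139.9 in the combination. The 3 immune markers summed to at most 0.712 CPM in any library and CD3E had 0 reads. The 2 endothelial markers summed to between 16.6 and 20.3 CPM in controls and between 35.9 and 43.4 with the combination, and the 4 mesenchymal markers, among them VIM at a median of 317 CPM, to between 306 and 316 and between 329 and 362. The part of these marker levels and of the mitochondrial share in the results below was not tested. In bulk RNA, fewer cells of a type and less RNA per cell cannot be told apart.

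Levels below are CPM scaled by TMM, given per library in the order 1, 2, 3 or as mean ± SD over n = 3. Changes are log2 fold changes ± SE, and a member is said to rise or fall only where edgeR's quasi-likelihood test over all 17096 genes gave a Benjamini-Hochberg adjusted p under 0.05. The members were of modest abundance, with a median of 15.8 CPM over the 12 libraries, quartiles of 6.41 and 30.5 and a highest mean of 223.9 CPM for ZNF664. Per kilobase of exon, the order differed: ZNF664 led at 35.3 CPM per kb, before ZNF581 at 20.3, ZNF622 at 18.5, ZNF623 at 18.3 and ZNF638 at 17.1.

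With IN10018 alone, zinc finger transcripts stayed close to control. ZNF514, a KRAB gene on chromosome 2, rose, and no member fell, beside 0.345% of all genes called higher and 0.158% called lower. The control libraries held 49.1, 56.4 and 46.8 CPM of ZNF514 and the IN10018 libraries 77.9, 79.2 and 71.6, so the groups did not overlap. The change was 0.59 ± 0.11, with an adjusted p of 0.031 by edgeR. Its level was much the same in crizotinib, at 73.6 ± 7.90 CPM, and in the combination, at 79.8 ± 4.32 CPM. ZNF514 also rose in both, by 0.54 ± 0.11 (edgeR adjusted p = 0.0047) and 0.65 ± 0.11 (0.00027). The IN10018 call was lost with DESeq2 size factors and without any 1 of control libraries 1 and 3, the 3 IN10018 libraries, crizotinib library 3 and combination library 1, where the change ran from 0.50 to 0.66 and the adjusted p from 0.050 to 0.27. ZNF514 shares exon bases with its neighbour MRPS5 on the same strand, so reads there could be assigned to either gene.

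The count of members changed by IN10018 depended on which libraries set the spread. At an unadjusted p under 0.05 there were 16 members in the 12-library test. DESeq2 and limma-voom each called 1 higher and 0 lower. With only the 6 libraries compared, 19 rose and 6 fell, beside 8.34% and 5.58% of all genes in that fit. Of the 19, 14 had KRAB, and of the 6, 0 did. In that fit ZNF519 changed by 0.81 ± 0.18 (adjusted p = 0.013), ZNF575 by 0.73 ± 0.20 (0.014), ZNF628 by -0.69 ± 0.15 (0.0025) and ZNF503, a developmental transcriptional repressor, by -0.53 ± 0.16 (0.023); these were picked for size after their values were seen. Their adjusted p in the 12-library test was 0.15, 0.37, 0.22 and 0.23. Over the 12-library fit, the median change was 0.09 over KRAB members, 67 of 95 above 0, and -0.01 over the others, 28 of 58 above 0. The median over protein-coding genes was -0.06. With DESeq2 size factors the KRAB median was 0.04 and the other -0.06, and with library totals they were 0.15 and 0.05, so the sign over the members without KRAB turned.

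**Figure D1:**
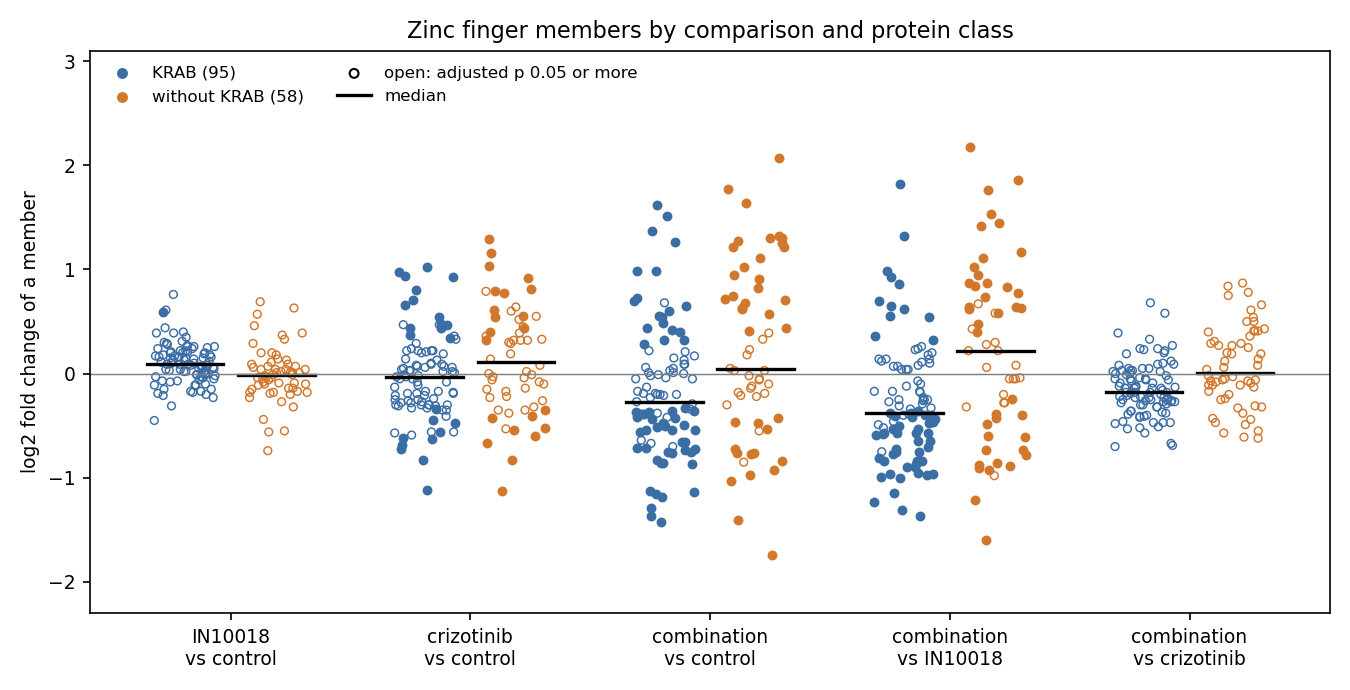
Log2 fold change of each of the 153 members (vertical axis) in 5 comparisons, in blue for the 95 with KRAB and in orange for the 58 without, filled where the adjusted p was under 0.05, with a black line at the class median. Filled points are nearly absent for IN10018 and absent for the combination against crizotinib, and with the combination the KRAB median lies at -0.27 and the other at 0.04.

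With crizotinib alone, 27 members rose and 19 fell, and 107 were not called. Among all genes 20.0% were called higher and 17.6% lower, and among protein-coding genes 18.1 and 22.9%, so the members' 17.6% higher and 12.4% lower lay near or under that background. Changes called ran from -1.13 to 1.29. By class, 14 of 95 KRAB members rose and 10 fell, with a median of -0.03, and 13 of the 58 others rose and 9 fell, with a median of 0.11. The KRAB median turned to 0.09 with library totals and to 0.15 with an offset for GC content and exon length, described below, where the other turned to -0.08. Without crizotinib library 2 the KRAB median was 0.01, with 10 rises and 5 falls, and the other 0.08, with 6 and 6.

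The largest increases were in a pair of neighbours on chromosome 19 without KRAB. ZNF580 held 13.8, 14.9 and 12.9 CPM in controls and 26.9, 47.5 and 27.3 with crizotinib, a change of 1.29 ± 0.26 (edgeR adjusted p = 0.0047; 0.96 and 0.011 without library 2 and 0.77 with the offset). ZNF581 held 17.7, 20.3 and 17.2 CPM in controls and 27.7, 62.0 and 33.9 with crizotinib, a change of 1.16 ± 0.27 (adjusted p = 0.0079; 0.74 and 0.023 without library 2 and 0.50 with the offset). In both, library 2 was the highest of the crizotinib libraries, and the groups did not overlap. The 2 genes share exon bases with each other and with CCDC106 on the same strand, so their counts are not independent and reads may be split between them.

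Next in size with crizotinib were the increases of ZNF785, ZNF671, ZNF688 and ZNF750, 3 KRAB genes and 1 without KRAB. ZNF785, a KRAB gene on chromosome 16, went from 9.01 ± 1.07 to 17.8 ± 2.70 CPM (0.98 ± 0.15, adjusted p = 0.0015 by edgeR; 0.85 and 0.0020 without library 2). ZNF671, a KRAB gene on chromosome 19, went from 1.65 ± 0.766 to 3.40 ± 0.520 CPM (1.02 ± 0.28, 0.013; 0.89 and 0.042 without library 2). ZNF688, the neighbour of ZNF785, went from 3.30 ± 0.424 to 6.30 ± 2.95 CPM (0.94 ± 0.30, 0.025), and without crizotinib library 2 its change was 0.49 with an adjusted p of 0.15. ZNF750, which drives the differentiation of epidermal cells, went from 0.584 ± 0.241 to 1.22 ± 0.188 CPM (1.03 ± 0.33, 0.026), and its call was lost without crizotinib library 2 (0.93, 0.090) or 3 (1.01, 0.055). Its control mean lay under the minimum of 1 CPM, so ZNF750 is a member only through groups where it was higher. The rule thus favoured a rise of ZNF750. The calls of ZNF671, ZNF688 and ZNF750 were also lost without control library 1, with changes of 0.80, 0.98 and 0.84, or without control library 3, with changes of 0.88, 0.78 and 0.89. With only the 6 libraries compared, ZNF688 (0.92, 0.051) and ZNF750 (1.01, 0.053) did not pass, nor with the offset (0.55, 0.071 and 0.82, 0.064), and ZNF750 did not pass in DESeq2's own test (0.97, 0.062).

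The largest decreases with crizotinib were in AT-rich genes. ZNF770, on chromosome 15 and without KRAB, held 69.4, 64.3 and 61.6 CPM in controls and 41.7, 16.2 and 31.1 with crizotinib, a change of -1.13 ± 0.26 (edgeR adjusted p = 0.0072; -0.84 and 0.0062 without library 2 and -0.75 with the offset). ZNF678, a KRAB gene on chromosome 1, held 29.1, 27.8 and 29.2 CPM in controls and 16.5, 8.73 and 14.4 with crizotinib, a change of -1.12 ± 0.19 (adjusted p = 0.0024; -0.89 and 0.0010 without library 2 and -0.67 with the offset). Library 2 was here the lowest of the crizotinib libraries, and the groups again did not overlap. ZNF614, ZNF507, ZNF510 and ZNF724 also fell, by 0.83, 0.83, 0.72 and 0.69 on the log2 scale. Without library 2 their changes were -0.60, -0.63, -0.47 and -0.79, all called, and with the offset -0.49, -0.38, -0.51 and -0.35, of which that of ZNF724 was not called (adjusted p = 0.29). The call of ZNF510 was lost without control library 1 (-0.69), and that of ZNF724 without any 1 of control libraries 1 and 2, IN10018 library 3 and crizotinib libraries 1 and 3 (-0.74 to -0.52) and with library totals (-0.56).

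The crizotinib counts rested on single libraries. Without crizotinib library 2, 16 members rose and 11 fell, beside 10.1% and 10.7% of all genes. Without crizotinib library 1 there were 36 and 33, without control library 1 there were 15 and 7, without control library 2 22 and 12, and without control library 3 11 and 15. Scaling moved the split of rises and falls: it was 42 and 10 with library totals, which raised the median of all genes by 0.124, and 21 and 27 with DESeq2 size factors.

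**Figure D2:**
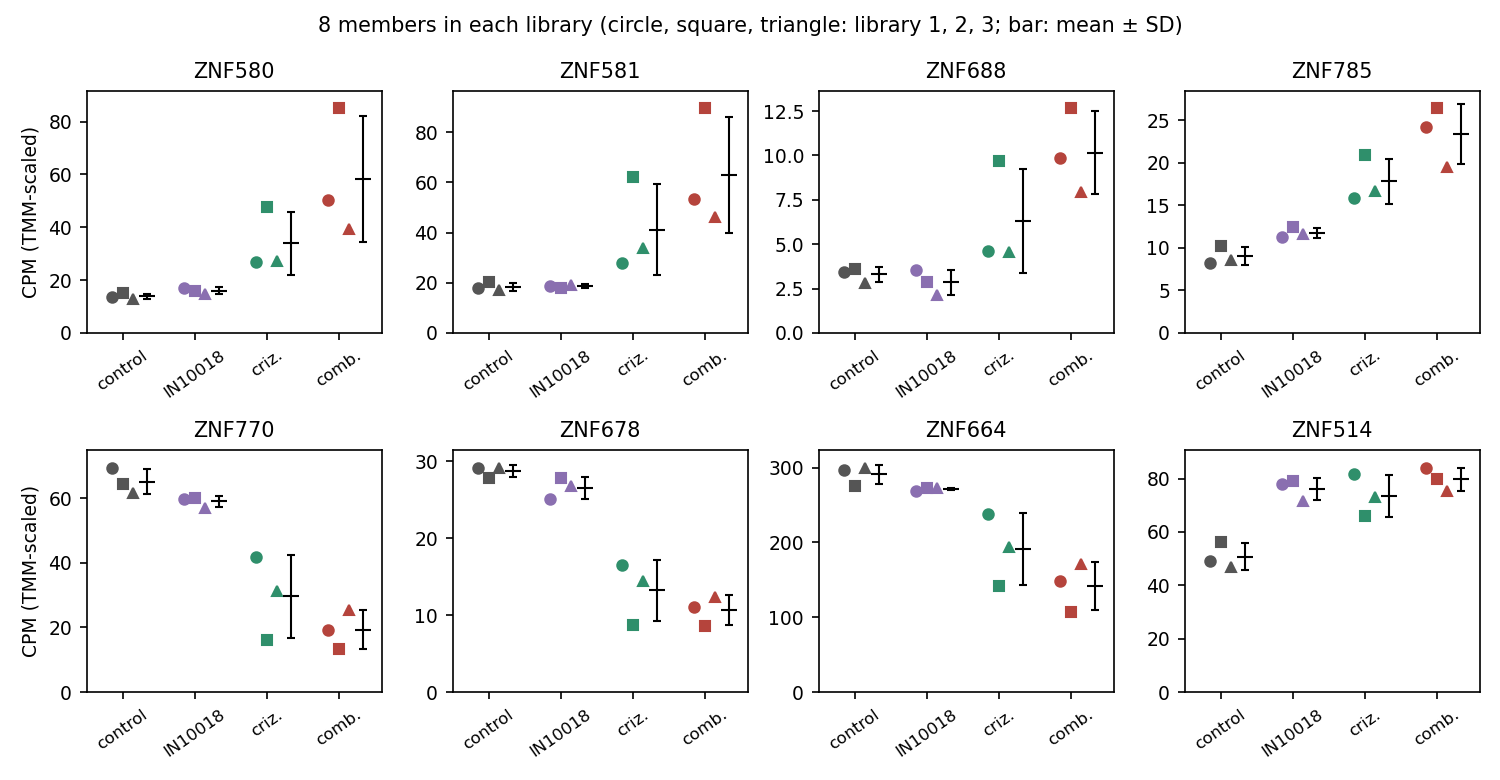
CPM scaled by TMM of 8 members in each library of the 4 groups, with the mean ± SD of each group beside its 3 points; each vertical axis starts at 0. In ZNF580, ZNF581, ZNF688 and ZNF785 the combination libraries lie above all controls, in ZNF770, ZNF678 and ZNF664 below them, and ZNF514 is higher than control in every treated library.

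With the combination, 96 of the 153 members differed from control: 43 rose and 53 fell. Among all genes 33.7% were called higher and 29.1% lower, and among protein-coding genes 30.6 and 36.5%. The members' 28.1% higher and 34.6% lower were close to the protein-coding background. The median change was -0.17 over members, -0.06 over protein-coding genes and 0.10 over all genes, and changes called ran from -1.74 to 2.07. With library totals 50 rose and 32 fell, since that scaling raised the median of all genes by 0.179, and the members' median was then 0.01.

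The protein classes divided in direction. Of the 95 KRAB members 19 rose and 39 fell, with a median of -0.27, and of the 58 others 24 rose and 14 fell, with a median of 0.04. The KRAB median was -0.09 with library totals, where 25 rose and 20 fell, and -0.35 with DESeq2 size factors, where 16 rose and 43 fell. The median of the others was 0.22 and -0.04 there, so its sign depends on the scaling. The 15 members of chromosome 19 without KRAB stood at the upper end, with 10 rising, 1 falling and a median of 0.72 (0.90 with library totals, 0.64 with DESeq2 size factors).

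ZNF580 gave the largest change of any member with the combination. Its combination libraries held 50.3, 85.0 and 39.4 CPM, all above the controls (13.9 ± 1.01), and the change was 2.07 ± 0.27 (edgeR adjusted p = 7.6e-05). ZNF581 reached 53.2, 89.4 and 46.2 CPM, a change of 1.77 ± 0.28 (0.00018). ZNF524, a telomere-binding protein of the same neighbourhood, held 7.78, 8.23 and 6.87 CPM in controls and 15.2, 33.8 and 22.2 with the combination, a change of 1.64 ± 0.33 (0.00085). Combination library 2 was the highest in all 3 genes.

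The next largest increases were in KRAB genes, closely followed by members without KRAB such as ZNF579, described below, and ZNF750. ZNF688 held 3.44, 3.63 and 2.82 CPM in controls and 9.88, 12.6 and 7.96 with the combination (1.62 ± 0.29, edgeR adjusted p = 0.00038). ZNF707 went from 19.1 ± 1.31 to 54.3 ± 14.2 CPM (1.51 ± 0.21, 0.00010). ZNF785 held 8.23, 10.2 and 8.57 CPM in controls and 24.3, 26.4 and 19.5 with the combination (1.37 ± 0.15, 4.4e-05). None of these 3 groups of libraries overlapped its controls. ZNF688 and ZNF785 each share exon bases with AC002310.2 on the opposite strand, and the strand setting of the counting was not given in the sources used here.

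ZNF770 gave the largest decrease, to 19.2, 13.5 and 25.4 CPM from 65.1 ± 3.95 in controls, a change of -1.74 ± 0.27 (edgeR adjusted p = 0.00016). ZNF678 fell to 11.1, 8.55 and 12.4 CPM (-1.42 ± 0.19, 8.9e-05). ZNF507 held 96.1, 94.3 and 93.8 CPM in controls and 37.0, 28.9 and 41.3 with the combination (-1.41 ± 0.18, 6.9e-05). In these members combination library 2 was the lowest of its group, and the groups did not overlap. ZNF614 fell from 46.3 ± 1.64 to 17.9 ± 3.97 CPM (-1.37 ± 0.21, 0.00018), ZNF792 from 5.34 ± 0.300 to 2.18 ± 0.556 (-1.29 ± 0.25, 0.00057) and ZNF510 from 14.5 ± 0.367 to 6.36 ± 0.380 (-1.18 ± 0.20, 0.00026).

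Among the 8 most abundant members, ZNF664 fell most. It held 297, 275 and 299.7 CPM in controls, 269 to 273 under IN10018, 238, 142 and 194 under crizotinib, and 149, 107 and 171 under both drugs, a change of -1.03 ± 0.18 against control (edgeR adjusted p = 0.00029). ZNF623 fell from 146 ± 7.91 to 106 ± 6.35 CPM (-0.47 ± 0.10, 0.0012), ZNF655, a partner of the signalling protein VAV1, from 93.0 ± 4.22 to 56.8 ± 11.3 (-0.71 ± 0.19, 0.0050) and ZNF704 from 88.7 ± 2.77 to 51.9 ± 7.39 (-0.77 ± 0.12, 0.00019). ZNF638, which recruits the HUSH silencing complex to unintegrated retroviral DNA, did not pass, at 217 ± 9.22 and 198 ± 6.91 CPM (-0.14 ± 0.09, 0.21), and with library totals the sign turned (0.04). ZNF652, a repressor of transcription, differed least, at 88.3 ± 1.07 and 85.0 ± 0.856 CPM (-0.05 ± 0.08, 0.59; 0.12 with library totals).

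Of 22 genes listed for a known role, 17 were members and 5 (ZNF516, ZNF521, ZNF593, ZNF703 and ZNF711) were below the minimum. With the combination 3 of the 17 rose, 6 fell and 8 were not called, beside the 33.7% higher and 29.1% lower of all genes. ZNF768, which carries repeats like those of the RNA polymerase II tail, rose from 28.0 ± 1.07 to 54.1 ± 15.8 CPM (0.95 ± 0.20, edgeR adjusted p = 0.0010). ZNF622, a factor of ribosome assembly, rose from 28.3 ± 2.24 to 37.7 ± 2.44 CPM (0.41 ± 0.15, 0.025), a call lost with DESeq2 size factors, in DESeq2's own test and without any 1 of the 3 control libraries or combination library 2 (0.33 to 0.42). ZNF750 rose to 1.47 ± 0.0527 CPM (1.30 ± 0.32, 0.0030). It passed the minimum only through groups where it was higher, so the rule favoured this rise.

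The role members that fell included parts of chromatin complexes. ZNF592, which works with ZMYND8 and ZNF687, fell from 68.7 ± 3.25 to 47.7 ± 2.65 CPM (-0.53 ± 0.10, edgeR adjusted p = 0.00057). Its partner ZNF687 held 40.4 ± 1.39 and 38.8 ± 2.85 CPM (-0.06 ± 0.11, 0.63). ZNF644, a subunit of the complex of the histone methyltransferases EHMT1 and EHMT2, fell from 47.3 ± 1.55 to 24.8 ± 5.78 CPM (-0.93 ± 0.18, 0.00069). ZNF706 fell from 50.2 ± 2.31 to 28.0 ± 4.85 CPM (-0.84 ± 0.18, 0.0013), ZNF689 from 16.7 ± 0.491 to 12.5 ± 0.983 (-0.43 ± 0.12, 0.0067) and ZNF532 from 8.43 ± 0.398 to 6.12 ± 1.11 (-0.46 ± 0.16, 0.024). The calls of ZNF689 and ZNF532 were lost with library totals (-0.25 and -0.28), and that of ZNF532 without control library 1 (-0.48) or combination library 1 (-0.44) or 2 (-0.36).

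The remaining role members did not pass against control in the 12-library test. ZNF598, the ubiquitin ligase that marks collided ribosomes, held 52.0 ± 0.957 and 48.6 ± 4.72 CPM. ZNF609, a partner of the cohesin loader NIPBL, held 77.0 ± 2.68 and 65.9 ± 4.87 (-0.22 ± 0.10, edgeR adjusted p = 0.061). The ZNF609 change passed with DESeq2 size factors (-0.30, 0.021), in DESeq2's own test (-0.30, 0.011), with only the libraries compared (-0.27, 0.040) and with the offset (-0.21, 0.036). It also passed without crizotinib library 1 (-0.22, 0.047) or 2 (-0.23, 0.041), combination library 3 (-0.28, 0.031) or both libraries numbered 2 (-0.21, 0.036). ZNF668, linked to the repair of DNA breaks, held 6.76 ± 0.782 and 6.65 ± 0.409 CPM. ZNF746, a repressor degraded through parkin, held 20.8 ± 1.73 and 22.1 ± 0.105 CPM. ZNF503 held 5.76, 5.93 and 6.65 CPM in controls, 4.27, 3.69 and 4.55 under IN10018, 4.62, 6.34 and 5.60 under crizotinib, and 6.31, 9.45 and 8.45 under both drugs. The IN10018 libraries were the lowest. It changed by 0.39 ± 0.18 against control (edgeR adjusted p = 0.066; -0.38 with the offset) and rose by 0.95 ± 0.18 against IN10018 (0.00084). The change of ZNF503 against control passed with library totals (0.57, 0.013), the stricter filter (0.43, 0.044), the replicate block (0.39, 0.046) and without combination library 1 (0.54, 0.020).

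Across members, the change with the combination followed base composition. The 51 members with the highest exon GC content, above 50.0%, had 29 rises and 6 falls, with a median of 0.57. The 51 with the lowest, at or under 42.0%, had 3 rises and 28 falls, with a median of -0.56, and the middle 51 had 11 and 19. The 43 members that rose had a median GC content of 55.9%, and the 53 that fell had 41.9%. In the coding sequence alone, the third base of a codon was G or C at a median of 70.6% in those that rose and 39.4% in those that fell.

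With library totals the medians of the GC-richest and GC-poorest 51 were 0.75 and -0.38, and with DESeq2 size factors 0.49 and -0.64. In summed CPM, the GC-poorest 51 held 1483, 1496 and 1490 in controls and 1095, 940 and 1141 with the combination, and the GC-richest 51 held 880, 894 and 878 in controls and 1125, 1406 and 1104 with the combination. The crizotinib libraries held 1362, 1022 and 1257 in the GC-poorest 51 and 927, 1206 and 990 in the GC-richest. Libraries 1 and 3 lay between the controls and the combination, and library 2 within the range of the combination.

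The same order held over all protein-coding genes tested, the members included. Of 5751 protein-coding genes in the GC range of the richest 51, 53.7% rose and 13.3% fell with the combination. Of 3116 in the range of the poorest 51, 5.2% rose and 67.1% fell. As a description across genes, which share libraries and are not replicates, Spearman's rho between GC content and the change with the combination was 0.60 over the 153 members and 0.63 over 12486 protein-coding genes. With crizotinib it was 0.52 and 0.60, and over the members 0.34 without crizotinib library 2.

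Class and composition overlapped. Within the GC-richest 51, 7 of 15 KRAB members rose and 3 fell, and 22 of 36 others rose and 3 fell. Within the GC-poorest 51, 2 of 36 KRAB members rose and 20 fell, and 1 of 15 others rose and 8 fell. In a fit with an offset for GC content and exon length, 53 members rose and 31 fell with the combination, beside 28.1% and 27.0% of all genes, and the KRAB class turned to 36 rises and 16 falls, with a median of 0.12. The median of the others was then -0.06, and those of the GC-poorest and GC-richest 51 were 0.07 and 0.02. The offset takes out each library's median deviation in bins of GC content and of length over the genes tested. Medians near 0 by GC content are thus largely built into that fit and are not a finding. The sign of the KRAB median therefore held under both other scalings and turned with the offset, and the excess of KRAB falls over rises did not hold with library totals.

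Among the named members, the offset left ZNF792 little changed at -1.34 and raised ZNF514 to 1.17, both called. The rises of ZNF580 (1.21), ZNF581 (0.78), ZNF785 (1.11), ZNF688 (1.06) and ZNF707 (0.90) stayed called at a smaller size. So did the falls of ZNF770 (-1.07), ZNF507 (-0.70), ZNF678 (-0.68), ZNF614 (-0.76) and ZNF510 (-0.76). The offset ended the calls of ZNF524 (0.35, edgeR adjusted p = 0.17), ZNF655 (-0.05), ZNF704 (-0.16), ZNF644 (-0.19), ZNF706 (-0.20), ZNF532 (-0.15) and ZNF768 (0.02). ZNF638 and ZNF652 were called higher with it (0.62 and 0.52), and ZNF598, ZNF668 and ZNF687 lower (-0.93, -0.92 and -0.43). ZNF623 and ZNF622 stood at 0.00 and -0.21 with it. ZNF529 and ZNF721, picked after their values were seen, were the members called in opposite directions, at -0.37 and -0.33 without the offset and 0.37 and 0.45 with it.

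**Figure D3:**
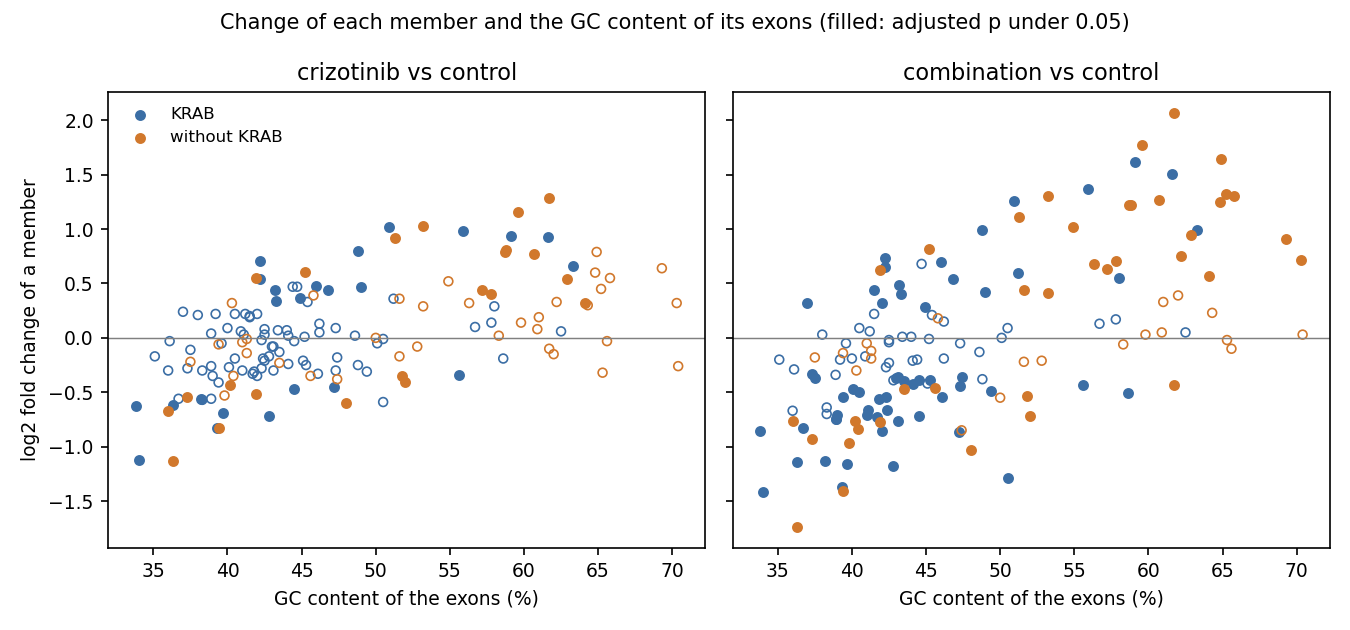
Log2 fold change of each member (vertical axis) against the GC content of its exons in percent (horizontal axis), with crizotinib on the left and the combination on the right; blue is KRAB, orange is without KRAB, and filled points have an adjusted p under 0.05. With the combination, rises gather at the right of the panel and falls at the left, with median GC contents of 55.9 and 41.9%.

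Neighbouring members moved together in some places and not in others. Joining members no more than 200000 bases apart, the 6 genes from ZNF628 to ZNF581 at chr19:55476332-55645622, none with KRAB and with a median GC content of 64.9%, formed the cluster with the highest median, 1.47. Of these ZNF579, ZNF524, ZNF784, ZNF580 and ZNF581 rose with the combination. ZNF579 held 4.56, 4.78 and 4.63 CPM in controls and 8.09, 17.0 and 9.49 with the combination (1.30 ± 0.26, edgeR adjusted p = 0.00085), and ZNF784 went from 2.26 ± 0.494 to 5.47 ± 1.42 CPM (1.25 ± 0.26, 0.0010). With the GC and length offset neither ZNF579 (0.27, 0.16) nor ZNF784 (0.03, 0.93) was called. ZNF628 held 8.68, 7.14 and 6.97 CPM in controls and 6.25, 9.03 and 7.96 with the combination, which overlap (0.03 ± 0.23, 0.92). With the offset ZNF628 was called lower (-0.89). Against IN10018 all 6 rose, with a median of 1.64. With the offset ZNF579 (0.45), ZNF524 (0.92), ZNF580 (1.00) and ZNF581 (0.85) stayed called there. ZNF784 (0.23) and ZNF628 (-0.20) did not.

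A cluster of 8 members at chr16:30407297-30787202, 5 with KRAB, had 5 rises and 2 falls with the combination, with a median of 0.79. Its neighbours ZNF785 and ZNF689, both KRAB genes, moved in opposite directions (1.37 and -0.43). The KRAB clusters of chromosome 19 differed in direction. ZNF701, ZNF611 and ZNF600 at chr19:52555457-52786807 had 2 rises and 0 falls, with a median of 0.32. With the GC and length offset ZNF611 (1.03) and ZNF600 (0.89) were called higher and ZNF701 (0.09) was not called. The 15 members at chr19:57320509-58003349 had 5 rises and 6 falls, with a median of -0.13, and ZNF671 (1.26 ± 0.27, edgeR adjusted p = 0.0013) lies among them. The 7 members at chr19:51804816-52296046, ZNF614 among them, had 1 rise and 4 falls, with a median of -0.50. With the offset ZNF577 (0.82) and ZNF766 (0.79) were called higher and ZNF614 (-0.76) lower. ZNF649, ZNF613, ZNF615 and ZNF616 were not called with it. ZNF525, ZNF765 and ZNF761 at chr19:53365693-53458261 fell, all 3 of them. With the offset none of these 3 was called (-0.06, -0.04 and 0.11).

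**Figure D4:**
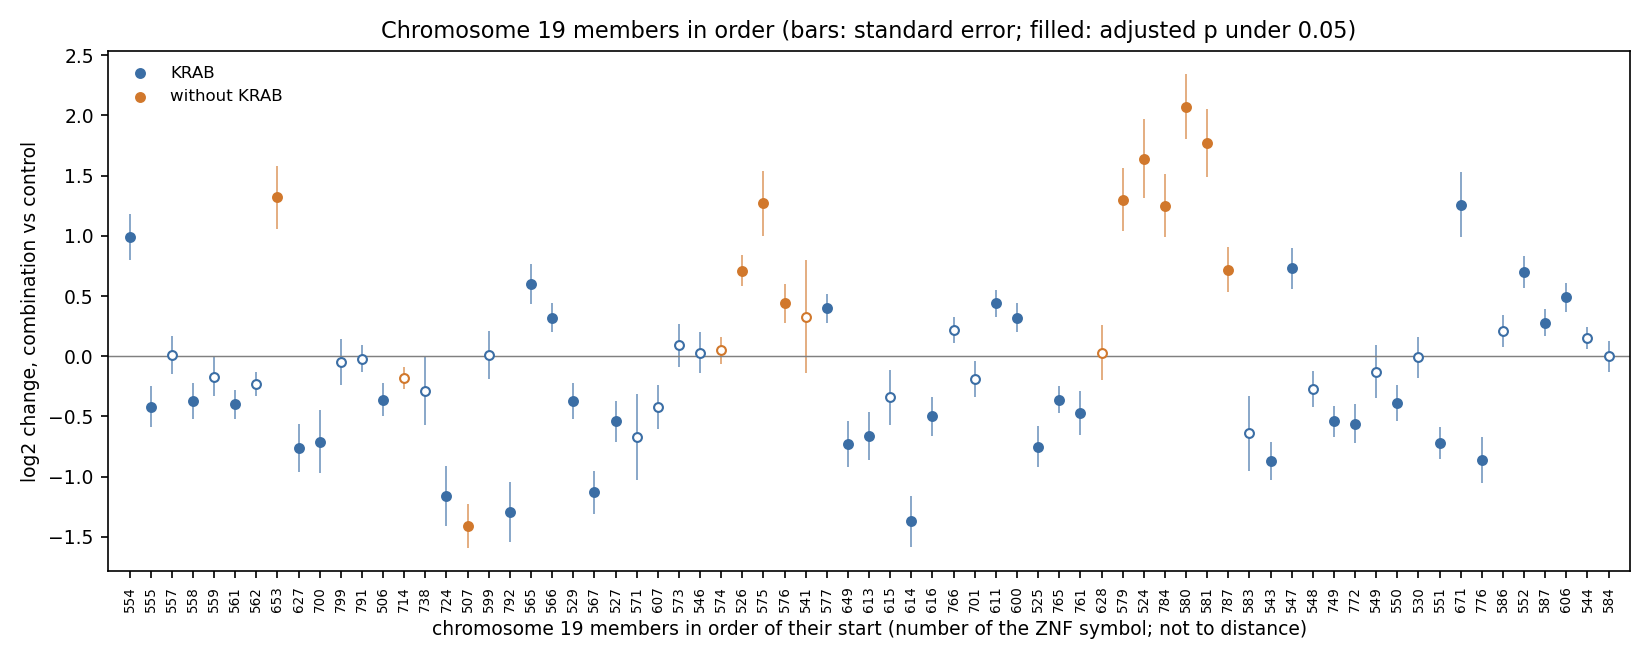
Log2 change with the combination against control (vertical axis, bars of 1 SE) of the 71 chromosome 19 members in order of their start, labelled by the number of the ZNF symbol and not drawn to distance; filled points have an adjusted p under 0.05. The orange points from 579 to 581, without KRAB, stand between 1.25 and 2.07.

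Promoters gave a further view of the members. RefSeq promoters of GRCh38.p14 matched 128 of the 153 members, and the 250 bases before the start were searched on both strands. The ETS motif CCGGAAG, read by the ETS family of transcription factors, was in 27.3% of member promoters (35 of 128), beside 16.1% of protein-coding genes tested and 8.8% of all 27305 promoters. It was in 11 of 36 members that rose with the combination and 9 of 44 that fell. The E box CACGTG was in 6 of 36 and 1 of 44, beside 5.5% of member promoters, 9.0% of protein-coding genes tested and 6.5% of all promoters. Of the other motifs searched, SP (GGGCGGGG) was in 14 of 36 and 15 of 44, and CCAAT in 14 of 36 and 23 of 44. Motifs of NRF1, YY1, ZNF143, CRE and AP-1 were each in at most 3 promoters of either set. No motif difference was tested. A match describes letters only, not a bound site. The ZNF580 and ZNF579 promoters, shown because both genes rose in the chromosome 19 cluster with the highest median and hold 1 ETS match each, read as follows with the match in capitals.
ZNF580, chr19:55640752-55641001, plus strand: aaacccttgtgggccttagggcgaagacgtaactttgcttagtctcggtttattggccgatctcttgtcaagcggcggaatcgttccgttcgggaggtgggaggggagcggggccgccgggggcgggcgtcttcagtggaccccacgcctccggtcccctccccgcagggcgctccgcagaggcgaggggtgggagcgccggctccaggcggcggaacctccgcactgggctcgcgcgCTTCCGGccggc
ZNF579, chr19:55580849-55581098, minus strand: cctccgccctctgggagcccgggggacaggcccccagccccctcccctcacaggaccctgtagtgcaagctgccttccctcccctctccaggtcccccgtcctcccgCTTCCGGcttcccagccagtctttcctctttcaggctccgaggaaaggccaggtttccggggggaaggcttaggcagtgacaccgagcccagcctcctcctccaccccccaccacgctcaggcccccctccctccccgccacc
The ZNF580 stretch holds 30 CpG pairs and the ZNF579 stretch 10. Median promoter GC content was 64.4% in members that rose and 61.8% in members that fell, a smaller difference than in their exons.

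Adding crizotinib to IN10018 gave 35 rises and 60 falls among members, beside 29.7 and 27.5% of all genes and 30.5 and 33.4% of protein-coding genes. The members' share of falls was 39.2% and of rises 22.9%. Of KRAB members 12 rose and 43 fell, with a median of -0.38, and of the others 23 rose and 17 fell, with a median of 0.22; with the offset both medians turned, to 0.03 and -0.01. The largest rise was in ZNF524, from 5.01, 5.00 and 5.65 CPM with IN10018 to 15.2, 33.8 and 22.2 (2.18 ± 0.34, edgeR adjusted p = 0.00041). ZNF688 changed by 1.82 ± 0.29 (0.00044) and ZNF579 by 1.53 ± 0.27 (0.00056). ZNF784 changed by 1.45 ± 0.26 (0.00069), a call that ended with the GC and length offset (0.23), where ZNF524 was at 0.92, ZNF688 at 1.26 and ZNF579 at 0.45, all called. Among the largest falls were ZNF567, from 24.6 ± 1.29 to 10.5 ± 1.75 CPM (-1.23 ± 0.18, 0.00038), and ZNF718, from 8.33 ± 0.803 to 3.72 ± 0.909 CPM (-1.15 ± 0.18, 0.00043), both KRAB genes. With the offset they were at -0.53 and -0.47, both called. With library totals the counts were 43 and 45, with the median of all genes raised by 0.113, and with the offset 41 and 34, beside 23.7 and 23.8% of all genes. The comparison shares the combination libraries with that against control, so the counts are not separate evidence.

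Adding IN10018 to crizotinib gave no call among the members: 0 rose and 0 fell by edgeR, DESeq2 and limma-voom, beside 0% and 0.0117% of all genes by edgeR, and 43 members had an unadjusted p under 0.05. Changes ran wide all the same. ZNF524 held 7.23, 21.1 and 11.1 CPM with crizotinib and 15.2, 33.8 and 22.2 with the combination (0.84 ± 0.32, edgeR adjusted p = 0.21). In both groups library 2 was the highest and the groups overlapped, and in each same-numbered pair the combination library was the higher. ZNF580 was likewise higher in the combination library of each pair. With a block for the number, 0 members rose and 0 fell.

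Without crizotinib library 2, 22 members rose and 35 fell, beside 15.0% and 17.3% of all genes. Of KRAB members 5 rose and 25 fell, and of the others 17 rose and 10 fell. ZNF524 was then at 1.36 ± 0.26 (edgeR adjusted p = 0.0044), ZNF688 at 1.13 ± 0.22 (0.0044), ZNF580 at 1.10 ± 0.23 (0.0047), ZNF770 at -0.91 ± 0.18 (0.0045) and ZNF792 at -0.90 ± 0.24 (0.011). Without library 2 of both groups, 19 rose and 27 fell, beside 10.9 and 14.4% of all genes. The number of calls in this comparison therefore turned on crizotinib library 2.

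**Figure D5:**
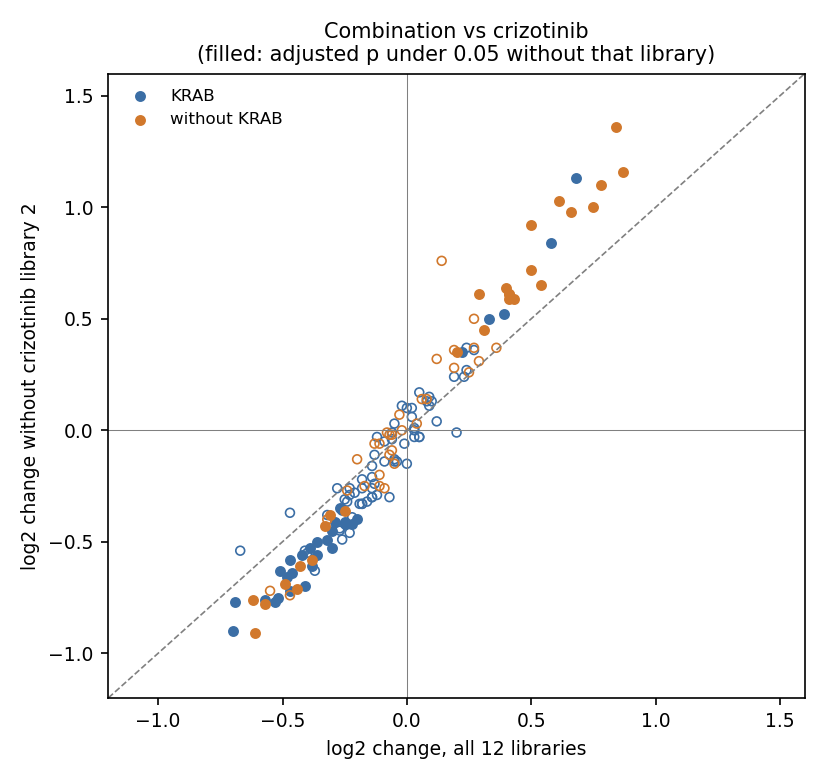
Log2 change of each member, combination against crizotinib, in the fit of all 12 libraries (horizontal axis) and without crizotinib library 2 (vertical axis); blue is KRAB, orange is without KRAB, filled points have an adjusted p under 0.05 without that library, and the dashed line marks equal values. No member was called with all 12 libraries, and without library 2 the 22 rises and 35 falls all lie farther from 0 than with it.

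The interaction asks whether the combination differed from the sum of the single-drug changes on the log2 scale. No member was called higher or lower by edgeR or limma-voom, beside 0.0585% and 0.0117% of all genes by edgeR, and DESeq2 called ZNF503 higher and none lower. By edgeR ZNF503 had an interaction of 1.10 ± 0.26 (adjusted p = 0.20). Without crizotinib library 2, 6 members had a positive interaction and 10 a negative one, beside 2.25 and 2.37% of all genes, and without library 2 of both groups there were 11 and 15, beside 5.41 and 5.71%.

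The partners through which KRAB proteins act were followed as a list of 44 genes of heterochromatin and corepressor complexes, of which 43 were tested. With IN10018 0 rose and 0 fell by edgeR. With only the 6 libraries compared, 2 rose and 5 fell, beside 8.34% and 5.58% of all genes, among them TRIM28 (-0.17, adjusted p = 0.019), SETDB1 (0.21, 0.027), UHRF1 (-0.22, 0.0059) and DNMT1 (-0.14, 0.046). With crizotinib 3 rose and 12 fell, beside 20.0% and 17.6% of all genes, and without crizotinib library 2 there were 1 and 7, beside 10.1% and 10.7%. With the combination 9 rose and 17 fell, beside 33.7% and 29.1% of all genes, or 18 and 13 with library totals and 13 and 16 with the offset. TRIM28, the scaffold that KRAB binds, held 399, 383 and 394 CPM in controls, 342, 314 and 362 under IN10018, 354, 491 and 419 under crizotinib, and 427, 520 and 419 under both drugs. Its change with the combination was 0.22 ± 0.12 (edgeR adjusted p = 0.14), which passed with library totals (0.39) and turned to -0.49, past the threshold, with the GC and length offset. SETDB1, the histone H3 lysine methyltransferase it recruits, held 51.2 ± 4.70 CPM in controls and 51.5 ± 2.73 with the combination (0.01 ± 0.10, 0.95).

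Within the HUSH complex, which extends such silencing, the members of the list moved apart. TASOR fell from 205 ± 6.16 to 121 ± 26.8 CPM with crizotinib and 93.0 ± 17.6 with the combination (-1.14 ± 0.16, edgeR adjusted p = 9.9e-05). MPHOSPH8, the subunit that reads methylated histone H3, rose from 74.7 ± 5.09 to 131 ± 43.0 and 172 ± 36.6 CPM (1.20 ± 0.20, 0.00025). PPHLN1, a further subunit on the list, fell from 69.4 ± 3.03 to 48.6 ± 3.38 CPM with the combination (-0.51 ± 0.12, edgeR adjusted p = 0.0018). With the GC and length offset PPHLN1 was not called (0.17). ATF7IP, the partner of SETDB1, fell from 114 ± 5.48 to 56.3 ± 12.5 CPM (-1.01 ± 0.17, 0.00023), and CBX1, a heterochromatin protein 1, from 174 ± 6.47 to 113 ± 8.54 (-0.63 ± 0.10, 0.00016). In the NuRD complex, RBBP4 fell from 165 ± 4.42 to 96.0 ± 10.1 CPM (-0.78 ± 0.12, 0.00014) and CHD4, a remodelling ATPase, rose from 15.7 ± 1.83 to 47.8 ± 18.8 (1.61 ± 0.27, 0.00028). MBD3 (1.31), CHD3 (0.36, from 421 ± 11.8 CPM in controls), GATAD2A (0.32) and MTA1 (0.23) of this complex also rose. No listed NuRD gene but RBBP4 fell. With the offset MBD3 (0.66) stayed called, CHD3 (0.09) and GATAD2A (0.12) did not, and MTA1 was called lower (-0.33). The histone methyltransferase SUV39H2 fell from 25.1 ± 0.488 to 13.1 ± 2.07 CPM (-0.93 ± 0.14, 0.00016). UHRF1, which guides maintenance of DNA methylation, fell with crizotinib from 104 ± 2.47 to 67.4 ± 5.33 CPM (-0.63 ± 0.11, 0.0029), and DNMT1, the enzyme it guides, from 363 ± 8.14 to 281 ± 24.1 (-0.37 ± 0.09, 0.011). Without crizotinib library 2 the changes with crizotinib were -0.59 for UHRF1, -0.44 for DNMT1, -0.61 for TASOR and 0.54 for MPHOSPH8, all called. With the offset the changes with the combination were smaller for TASOR (-0.36), ATF7IP (-0.33), RBBP4 (-0.22) and SUV39H2 (-0.57), -0.55 for CBX1, 1.63 for MPHOSPH8 and 1.64 for CHD4, all called.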

How the data were processed

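The deposited table holds whole-number read counts per gene as the authors counted them, with no normalization, for 12 libraries of NUGC-4. Per the submitters' processing notes the tools were Trimmomatic, FastQC, HISAT2, featureCounts and DESeq2, and the builds hg38 and GRCh38; versions, annotation release and strand setting are not given in the sources used here. Per the labels' protocols the library kit was directional.

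The counts were fitted with edgeR 4.0.16 in R 4.3.3 (TMM, filterByExpr by group, robust quasi-likelihood F test), 1 fit of 12 libraries with a coefficient per group. P-values were adjusted by Benjamini-Hochberg over all 17096 genes tested, and 0.05 was the threshold. The SE is the absolute log2 change divided by the square root of F. The common biological coefficient of variation, the spread between libraries beyond counting noise, was estimated at 0.139. On simulated data, edgeR recovered 73% of 1-unit and 96% of 2-unit log2 changes for the combination against control, and 8.65% of the calls there were false (7.57% for crizotinib against control). Few genes were changed in that simulation, equally up and down and regardless of GC content, and no library was shifted as a whole. In the data 33.7% of genes were called higher and 29.1% lower with the combination, so these rates may not carry over.

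Positions, exon lengths, GC content and translated coding sequences came from GENCODE 29 on GRCh38, and promoters from RefSeq on GRCh38.p14. GC content is that of the longest transcript of a gene, and exon length that of all its exons joined. Of the 153 members, 52 share exon bases with a gene on the opposite strand and 49 with one on the same strand, so reads there may be counted for either gene. The KRAB class rests on a pattern search. A KRAB box that departs from the pattern is missed, so the genes called without KRAB may include KRAB genes.

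Members and lists were chosen with earlier results of these data known. The genes named are, in each comparison, the members past the threshold whose libraries do not overlap, the 6 largest changes each way; the 8 most abundant members; members with a known role; and TRIM28, SETDB1 and up to 4 corepressor genes with the smallest p. Other members named are said to be picked after their values were seen, or stand in a cluster. PPHLN1, MBD3, CHD3, GATAD2A and MTA1 were added to show the other calls within their complexes.

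Same-numbered crizotinib and combination libraries had deviations that correlated at 0.22, 0.62 and 0.27. Pairs of unlike number ran from -0.53 to 0.42, the latter for crizotinib library 1 with combination library 3. Only the libraries numbered 2 stood clear of these, so a pairing by number is not established for the others. The labels give none, and a block for the number was tried as an alternative. It changed no count in the combination against crizotinib. Other settings tried were scaling by library totals or DESeq2 size factors, a stricter filter (1 CPM in 3 libraries and 100 reads) or none, tests by DESeq2 1.42.0 and limma-voom 3.58.1, the block, fits of only the libraries compared, and leaving out libraries. An offset for GC content and exon length was added after seeing the data.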

Additional observations from a re-analysis of the deposited data

How the results depend on the processing

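Counts below give members higher and lower, and the cause of a shift was not tested unless fewer libraries or genes show it. With IN10018 there was 1 and 0; DESeq2 size factors gave 0 higher, no filter 2 and 1, only the 6 libraries compared 19 and 6, leaving out library 2 of crizotinib and combination 7 and 3, and the GC and length offset 2 higher. With crizotinib (27 and 19) library totals gave 42 and 10, only the libraries compared 17 higher and the offset 42 higher. With the combination (53 lower) library totals gave 32 lower and the offset 31, and against IN10018 (60 lower) the offset gave 34. The combination against crizotinib (0 and 0) had 7 and 7 with no filter and 19 and 27 without both libraries numbered 2. The interaction (0 and 0) had 4 and 2 with no filter, 11 and 15 without both libraries, and 1 higher in the DESeq2 test. Leaving out 1 library in turn gave 0 to 1 and 0 to 0 for IN10018, 11 to 36 and 7 to 33 for crizotinib, 34 to 44 and 37 to 59 for the combination, 29 to 37 and 48 to 68 for the combination against IN10018, 0 to 22 and 0 to 35 against crizotinib, and 0 to 6 and 0 to 10 for the interaction. With a replicate block the counts were 1 and 0, 29 and 24, 44 and 55, and 36 and 64 in the same order. For the combination against crizotinib and for the interaction they were 0 and 0. No count moved by over 1.5 times. The labels give no pairing by number, and the deviations set only the libraries numbered 2 clearly apart.

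Of the 96 members called with the combination, 91 were called the same way with DESeq2 size factors, 75 with library totals, 91 by DESeq2, 96 by limma-voom and 51 with the offset, where 2 were called the opposite way. Among the values of single genes under the alternatives, 1674 kept direction and side of the threshold, 54 lost the call, 23 gained one and 31 changed sign. With the combination against control the sign changed with library totals for ZNF638 (0.04), ZNF652 (0.12), ZNF598 (0.08), ZNF668 (0.16) and ZNF687 (0.12). It changed with the offset for ZNF638 (0.62), ZNF623 (0.00), ZNF652 (0.52), ZNF503 (-0.38), ZNF622 (-0.21) and TRIM28 (-0.49; -0.30 against IN10018). ZNF668, near 0, also turned with the stricter filter (0.01), without both libraries numbered 2 (0.03), and without control library 1 (0.04) or combination library 2 (0.01), within a range of -0.12 to 0.04 over single libraries left out. SETDB1, also near 0, turned with DESeq2 size factors and in the DESeq2 test (-0.07 each), with no filter (-0.01), with only the libraries compared (-0.03) and when 1 library was left out (control 1, -0.03; control 3, -0.10; IN10018 1, 0.00; combination 1, -0.01; combination 3, -0.02). With crizotinib SETDB1 turned with size factors and in the DESeq2 test (-0.02 each) and without control library 3 (-0.06), and TRIM28 without crizotinib library 2 (-0.02, up to 0.23 without another library) or both libraries numbered 2 (-0.02) and with the offset (-0.33). At this depth members under about 1 CPM gave few reads, and ZNF750 is the named member most limited by it.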

Other observations

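The other numbered zinc finger genes, outside ZNF500 to ZNF799, gave 215 genes at the same minimum. With the combination 58 of them rose and 63 fell, with a median of -0.02, beside 33.7% and 29.1% of all genes and 30.6% and 36.5% of protein-coding genes. Of 106 in which the pattern found KRAB, 21 rose and 28 fell. Of 109 without a match, which may include KRAB genes that the pattern missed, 37 rose and 35 fell. Against IN10018, 33 of the 215 rose and 75 fell, with a median of -0.15, beside 29.7% and 27.5% of all genes. With crizotinib 32 rose and 30 fell, beside 20.0% and 17.6%.

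Of the 54 genes of the same number range that were below the minimum, 24 had 0 reads in all 12 libraries. KRAB was found in 39, and 37 lie on chromosome 19.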
